A study of Mus musculus with 8 samples.

Results

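The B3gnt family is described here by 7 genes, B3gnt2, B3gnt3, B3gnt4, B3gnt5, B3gnt7, B3gnt8 and B3gnt9, out of 55401 gene identifiers in the count table. The members were taken by gene symbol, starting from B3gnt3, which was chosen by its measured level because that level separates the 3 cell lines. The counts of B3gnt3 in the 3 lines are therefore given as a description with no test, and the tests below concern the other members and lists of related genes. Members and lists were chosen with earlier results of these data known, which the p-values do not take into account. Of the 7 members, 5 passed the filter on low counts, and B3gnt4 and B3gnt7 did not.

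The libraries are polyA RNA sequencing of cultured mouse lines named for epithelioid hemangioendothelioma (EHE), a tumour of endothelial cells. The groups are EHE26 (n = 2 libraries), EHE17 (n = 3) and EHE6 (n = 3). Line name is the only attribute that the labels give for a group, and genotype, treatment, age, passage and clonality were not part of what was used here. No label says whether the libraries of a line came from separate cultures, so the p-values below measure only the spread between these libraries, which may be technical. Each group is a single line, so a difference between groups is a difference between 3 lines.

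B3GNT enzymes sit in the Golgi and transfer N-acetylglucosamine from UDP-N-acetylglucosamine to a terminal galactose. Alternating with galactosyltransferases, they build poly-N-acetyllactosamine, the repeating chain that galectins bind and that carries Lewis and selectin-ligand epitopes. The members differ in the acceptor they prefer. B3GNT2 is the main enzyme of poly-N-acetyllactosamine synthesis, and B3GNT8 forms a complex with it. B3GNT3 extends core 1 O-glycans, which in the high endothelial venules of lymph nodes carry sulfated ligands for L-selectin. B3GNT5 makes lactotriaosylceramide, the precursor of lacto- and neolacto-series glycolipids, and B3GNT7 elongates keratan sulfate chains.

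The promoters of B3gnt3, B3gnt5 and B3gnt2 are printed because they are, in that order, the member picked for separating the lines, the member with the widest spread inside a line, and the main poly-N-acetyllactosamine enzyme. Each window runs from 250 bases before the gene's start to 50 bases after it, in the RefSeq annotation of GRCm38.p6. It is written 5′ to 3′ on the gene's strand, and 6 of the 7 members were in the table, without B3gnt9. Capitals mark matches, on either strand, to CATTCC (the TEAD motif), TGANTCA (AP-1), GAAANN followed by GAAA (the interferon-stimulated response element) or GGGCGG (the GC box). The B3gnt3 window is chr8:71701751-71702050 on the minus strand, the B3gnt5 window chr16:19759984-19760283 on the plus strand, and the B3gnt2 window chr11:22859686-22859985 on the minus strand.
B3gnt3: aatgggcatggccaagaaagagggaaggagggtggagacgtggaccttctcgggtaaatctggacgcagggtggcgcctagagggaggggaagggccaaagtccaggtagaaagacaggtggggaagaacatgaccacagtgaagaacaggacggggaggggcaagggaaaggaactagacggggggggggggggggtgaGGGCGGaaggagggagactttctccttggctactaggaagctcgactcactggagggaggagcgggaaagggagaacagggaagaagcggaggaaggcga
B3gnt5: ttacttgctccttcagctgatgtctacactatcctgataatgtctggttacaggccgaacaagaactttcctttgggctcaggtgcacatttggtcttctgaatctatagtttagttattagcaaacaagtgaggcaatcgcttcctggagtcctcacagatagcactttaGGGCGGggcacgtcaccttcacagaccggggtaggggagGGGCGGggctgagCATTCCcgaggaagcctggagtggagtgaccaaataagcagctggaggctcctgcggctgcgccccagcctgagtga
B3gnt2: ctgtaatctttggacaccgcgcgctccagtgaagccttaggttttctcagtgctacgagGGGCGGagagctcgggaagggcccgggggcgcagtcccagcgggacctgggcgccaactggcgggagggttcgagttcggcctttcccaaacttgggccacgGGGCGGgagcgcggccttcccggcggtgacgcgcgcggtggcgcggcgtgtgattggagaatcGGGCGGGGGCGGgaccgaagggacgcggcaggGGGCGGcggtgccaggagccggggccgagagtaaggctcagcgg

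The B3gnt3 window held 1 GC box, at bases 201 to 206, and no match to the other motifs. Its letters were 75.3% purines, a share that 0.0852% of 32851 windows of this length reached, and its longest run of G was 16 bases. The B3gnt5 window held 2 GC boxes and the only TEAD match among the 6 windows, at bases 224 to 229. The B3gnt2 window held 5 GC boxes and 37 CpG sites, against 11 in the B3gnt3 window, 9 in the B3gnt5 window and a median of 7 over all windows. None of the 6 windows matched AP-1 or the interferon-stimulated response element. Of all windows, 35.7% held a GC box, 14.7% a TEAD match, 7.81% an AP-1 match and 3.44% a match to the interferon-stimulated response element.

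Total counts were 44620965 to 96237665 per library. Values are given as CPM, read counts scaled to the size of each library with a factor from the trimmed mean of M-values. The first principal component divided the libraries into a first set (replicates 1 and 2 of EHE17 and of EHE6) and a second set (both EHE26 libraries and replicate 3 of EHE17 and of EHE6), so EHE26 has no library in the first set. All 10 endothelial markers examined had reads in each line. Their summed level was 3784 to 4620 CPM in EHE26, 5335 to 8863 CPM in EHE17 and 2614 to 11159 CPM in EHE6. These sums rest mostly on Cdh5 and Pecam1, and the fitted differences of single markers were mostly below 0. In EHE26 against EHE6, 0 of 10 were above 0, with a median log2 fold change of -1.59. In EHE26 against EHE17, 1 of 10 was, with a median of -1.18. The median over all genes was -0.11 in each. By edgeR 0 of 10 were called in either, where 1.26% and 1.08% of all genes were. At an unadjusted p under 0.05 were 4 and 3, where 15.9% and 16.6% of all genes were. Cldn5 was named after its values were seen, as the endothelial marker farthest from 0 in both comparisons. It had 7.95 and 0.526 CPM in EHE26, against 279, 770 and 324 CPM in EHE17 and 403, 287 and 1.05 CPM in EHE6. Epithelial markers summed to 4.14 to 31.7 CPM in EHE26, where Krt5 and Cldn4 had no read, to 1.48 to 32.4 CPM in EHE17 and to 24.9 to 105 CPM in EHE6. The highest sums of EHE26 and EHE6 rest mostly on Krt18, at 28.3 CPM in replicate 2 of EHE26 and 89.2 CPM in replicate 3 of EHE6. Of the single epithelial markers, 0 of 10 were above 0 in EHE26 against EHE6, with a median log2 fold change of -5.08. In EHE26 against EHE17, 3 of 10 were, with a median of -4.81. By edgeR 0 were called in either, with 3 and 2 at an unadjusted p under 0.05. Fibroblast markers summed to 346 to 1097, 1113 to 1803 and 299 to 446 CPM in EHE26, EHE17 and EHE6. The EHE17 sums rest mostly on Thy1, at 933, 1347 and 1767 CPM, against 605 and 131 CPM in EHE26. Of the single fibroblast markers, 6 of 10 were above 0 in EHE26 against EHE17, with a median of 0.32. Against EHE6, 6 of 10 were, with a median of 0.35. In bulk RNA, fewer cells of a type and less RNA per cell cannot be told apart, and the part of these markers in the results was not tested.

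B3gnt3 was high in EHE26, low in EHE17 and intermediate in EHE6. Its level was 300.5 and 286 CPM in the EHE26 libraries, from 16334 and 13021 reads. In EHE17 it was 3.60, 6.29 and 3.03 CPM, from 290, 568 and 151 reads, and in EHE6 it was 43.2, 42.6 and 54.9 CPM, from 3210, 3022 and 2615 reads. No pair of lines overlapped, and the lowest count was well above the floor of 3 reads. The means were 293 ± 10.6 CPM in EHE26 (SD, n = 2), 4.31 ± 1.74 CPM in EHE17 (SD, n = 3) and 46.9 ± 6.93 CPM in EHE6 (SD, n = 3). As a description, the log2 fold change was 6.09 ± 0.38 (SE) for EHE26 against EHE17, a 67.9-fold difference. It was 2.64 ± 0.34 for EHE26 against EHE6, or 6.24-fold, and -3.44 ± 0.33 for EHE17 against EHE6. Of the 18882 genes tested, 0.667% had the 3 lines separated in the order EHE26, EHE6, EHE17, and 2.99% had them separated in some order. These shares are the background of the pattern for which B3gnt3 was picked.

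**Figure D1:**
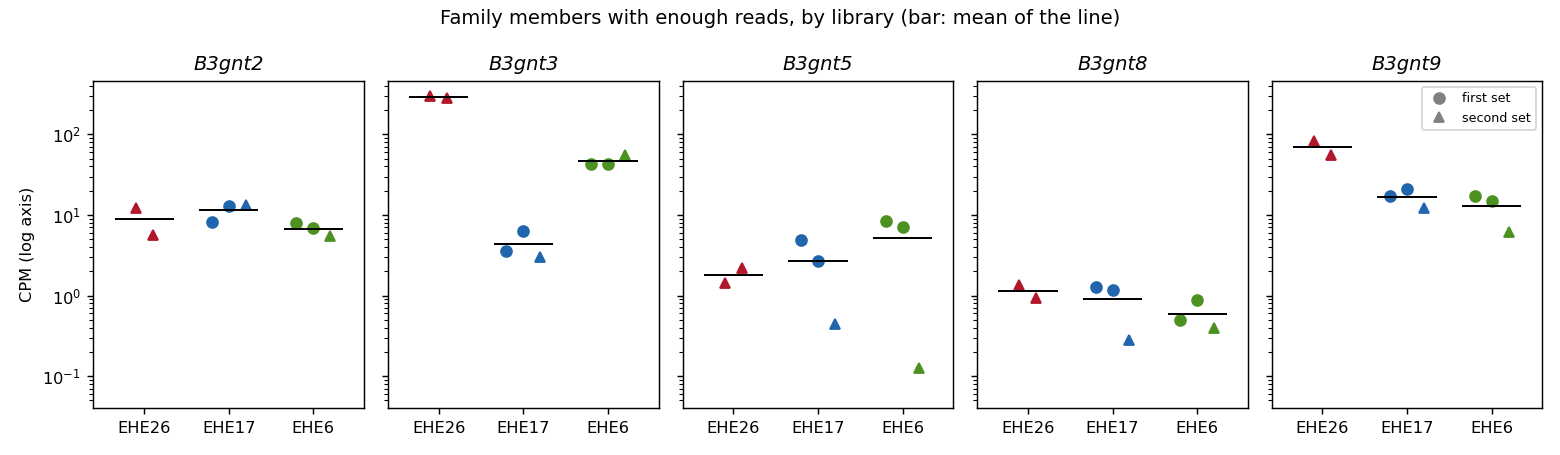
Level of the 5 tested B3gnt members in CPM on a log axis, with EHE26 at the left, then EHE17 and EHE6. Points are libraries (circles for the first set, triangles for the second), bars are line means, and B3gnt3 stands at 286 to 300.5 CPM in EHE26, 3.03 to 6.29 CPM in EHE17 and 42.6 to 54.9 CPM in EHE6.

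Because B3gnt3 was picked for lines that do not overlap, its order inside each set of libraries was fixed by that choice, and the values by set only describe the size. EHE17 and EHE6 have 1 library each in the second set, which the fit assumes to vary like the pair of EHE26 libraries. Within the second set, B3gnt3 differed by 2.41 ± 0.24 (log2, SE) between EHE26 and EHE6, by 6.60 ± 0.31 between EHE26 and EHE17 and by -4.18 ± 0.28 between EHE17 and EHE6. Within the first set, EHE17 and EHE6 differed by -3.10 ± 0.37. B3gnt3 has 1 annotated transcript of 3055 bases, on the minus strand of chr8:71690756-71701789 (GRCm38). Its coding region of 372 codons lies in 2 exons, and none of its exon bases is shared with another annotated gene. The labels leave unstated whether reads were counted by strand, and the part of that in these values was not tested. Jak3, on the plus strand, ends 180 bases from B3gnt3.

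B3gnt9, a less studied member, was the only tested paralogue whose EHE26 libraries lay above those of both other lines, as 9.88% of all genes did. It reached 84.0 and 55.8 CPM in EHE26, against 17.3, 21.1 and 12.1 CPM in EHE17 and 17.3, 14.8 and 6.20 CPM in EHE6. EHE17 and EHE6 overlapped. The log2 fold change was 2.45 ± 0.46 (SE) for EHE26 against EHE6, with an edgeR adjusted p of 0.0555 and a 95% interval of 1.38 to 3.52. For EHE26 against EHE17 it was 2.05 ± 0.46, with an adjusted p of 0.0925 and an interval of 0.996 to 3.11. Neither passed the threshold of 0.05. For EHE17 against EHE6 the value was 0.40 ± 0.41 with an adjusted p of 1.

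The result for B3gnt9 depended on the fit. In EHE26 against EHE6 it passed the threshold with the set as a term in the fit (log2 3.24, adjusted p = 0.00888), without replicate 3 of EHE6 (2.13, adjusted p = 0.0164) and by DESeq2 (2.43, adjusted p = 0.000523), and its adjusted p ran from 0.000523 to 0.360 over 15 alternatives. In EHE26 against EHE17 it passed with the set as a term (2.75, adjusted p = 0.0150), without replicate 3 of EHE6 (2.05, adjusted p = 0.0106) and by DESeq2 (2.05, adjusted p = 0.00542), over a range of 0.00542 to 0.426. In the second set alone it was 3.49 (adjusted p = 0.0394) and 2.53 (adjusted p = 0.0475). With the set as a term 1.89% of all genes were called in EHE26 against EHE6 and 1.69% in EHE26 against EHE17, against 8.47% and 8.49% by DESeq2 and 1.95% and 3.58% in the second set. Leaving out replicate 3 of EHE6 gave 1632 and 1415 called genes in EHE26 against EHE6 and EHE26 against EHE17, against 237 and 203 in the main fit. B3gnt9 lies 33.6 Mb from B3gnt3, at chr8:105252638-105255153 on the minus strand. It shares 16.5% of its exon bases with the antisense gene D230025D16Rik, so that reads from the overlap cannot be told apart without strand.

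B3gnt2 was not called in any comparison. It had 12.1 and 5.64 CPM in EHE26, against 8.09, 13.0 and 13.1 CPM in EHE17 and 7.84, 6.91 and 5.50 CPM in EHE6. The EHE26 libraries overlapped those of EHE6 and of EHE17, and all EHE17 libraries lay above all EHE6 libraries. The log2 fold changes were 0.39 ± 0.43 (SE) for EHE26 against EHE6, -0.36 ± 0.44 for EHE26 against EHE17 and 0.76 ± 0.39 for EHE17 against EHE6, with edgeR adjusted p of 0.715, 0.697 and 0.817. The intervals of these differences reached from -0.61 to 1.39, from -1.38 to 0.66 and from -0.15 to 1.66, so moderate differences are not excluded. Of its exon bases, 66.0% lie in Gm28048, Gm12057 or 9130230N09Rik as well, and how reads in shared bases were counted is not stated in the sources used here.

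B3gnt5 had its widest spread between libraries of the same line. It had 1.43 and 2.17 CPM in EHE26, against 4.95, 2.68 and 0.441 CPM in EHE17 and 8.34, 7.08 and 0.126 CPM in EHE6. The lowest library of EHE17 and of EHE6 was the one in the second set, where 22 and 6 reads were counted. The 3 lines overlapped, and the log2 fold changes were -1.52 ± 1.45 (SE) for EHE26 against EHE6, -0.58 ± 1.40 for EHE26 against EHE17 and -0.95 ± 1.24 for EHE17 against EHE6, with edgeR adjusted p of 0.659, 0.857 and 1. In the second set alone the values were 3.81 (adjusted p = 0.119), 2.02 (adjusted p = 0.253) and 1.79 (adjusted p = 0.342), all in the opposite direction, where 2.77% of all genes were called in EHE17 against EHE6. B3gnt5 shares no exon base with another gene.

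Levels in the second-set library were below both first-set libraries, in EHE17 and in EHE6, for B3gnt5, B3gnt8 and B3gnt9, 3 of the 5 tested members, as for 28.3% of all tested genes. The log2 difference, second set minus first set with a pseudocount of 0.1 CPM, was -2.85 for B3gnt5 in EHE17 and -5.11 in EHE6. For B3gnt9 it was -0.66 in EHE17 and -1.36 in EHE6, and for B3gnt8 -1.79 in EHE17 and -0.67 in EHE6. For B3gnt3 it was -0.69 in EHE17 and 0.35 in EHE6, and for B3gnt2 0.32 in EHE17 and -0.42 in EHE6. What divides the sets was not tested.

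B3gnt8, the partner of B3gnt2, was scarce throughout. It had 1.36 and 0.943 CPM in EHE26, against 1.27, 1.17 and 0.281 CPM in EHE17 and 0.498, 0.889 and 0.399 CPM in EHE6, from 14 to 106 reads. The EHE26 libraries lay above those of EHE6 and overlapped those of EHE17. The log2 fold changes were 0.95 ± 0.78 (SE), 0.34 ± 0.78 and 0.61 ± 0.70, with edgeR adjusted p of 0.599, 0.848 and 1, for EHE26 against EHE6, EHE26 against EHE17 and EHE17 against EHE6. Of its exon bases, 18.1% are shared with Bckdha on the opposite strand.

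B3gnt4 had 0 reads in all 8 libraries, and B3gnt7 had 2 reads each in replicates 1 and 2 of EHE17 and 0 elsewhere. A count of 0 over a line allows up to 0.0300 CPM in EHE26, 0.0136 CPM in EHE17 and 0.0156 CPM in EHE6, for counting error only. B3gnt4 shares 93.2% of its exon bases with Diablo on the opposite strand, which itself had 0.727 to 2.19 CPM, so the 0 for B3gnt4 may rest on how shared bases were counted. The floors above limit B3gnt7 in the EHE26 and EHE6 lines.

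Among the 4 tested paralogues of B3gnt3, 0 were called by edgeR (adjusted p under 0.05, with a change of 1 or more on the log2 scale in either direction) in each of the 3 comparisons. Of all genes, 1.26% were called in EHE26 against EHE6, 1.08% in EHE26 against EHE17 and 0.143% in EHE17 against EHE6. At an unadjusted p under 0.05, 1 paralogue, B3gnt9, was past the threshold in each EHE26 comparison and 0 in EHE17 against EHE6, where 15.9%, 16.6% and 6.90% of all genes were in EHE26 against EHE6, EHE26 against EHE17 and EHE17 against EHE6. DESeq2 called 1, 1 and 0 paralogues in the same comparisons. For EHE17 against EHE6, 1.96% of all genes were called by DESeq2 and 0.540% with the set as a term, which called 0 paralogues there. The EHE26 libraries lay above those of EHE6 for 2 of the 4 paralogues, where 16.0% of all genes did so, and above those of EHE17 for 1, where 18.7% did. All EHE17 libraries lay above all EHE6 libraries for 1 of the 4, B3gnt2, where 7.25% of genes did.

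**Figure D2:**
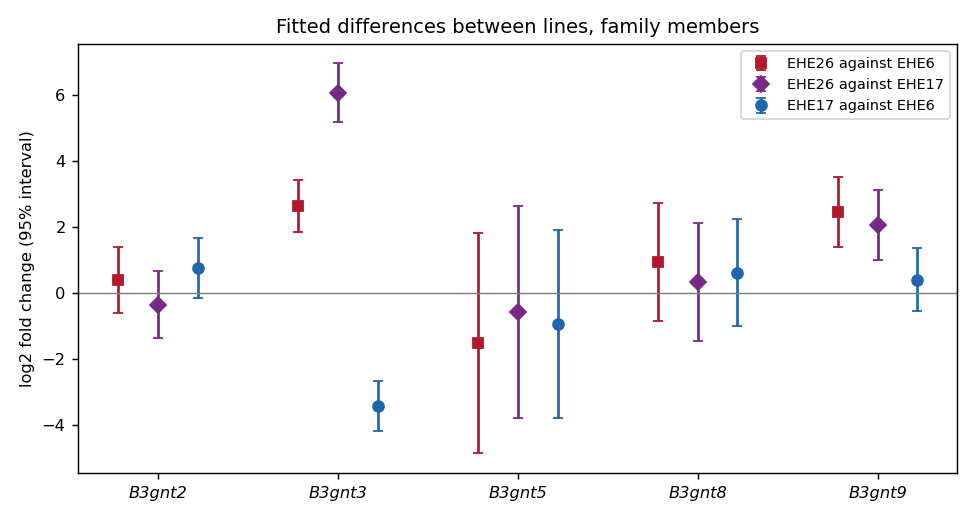
Log2 fold changes of the tested members in the 3 comparisons, EHE26 against EHE6, EHE26 against EHE17 and EHE17 against EHE6, with 95% intervals from the edgeR fit. B3gnt3 lies farthest from 0 at 2.64, 6.09 and -3.44, and the intervals of B3gnt2, B3gnt5 and B3gnt8 cross 0.

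Per kilobase of exon, B3gnt3 was the most abundant member in EHE26 and EHE6, and B3gnt9 in EHE17. In EHE26 B3gnt3 averaged 95.9 ± 3.45 CPM per kb and B3gnt9 27.8 ± 7.92 (SD, n = 2). In EHE17 B3gnt9 averaged 6.68 ± 1.80 CPM per kb and B3gnt2 2.73 ± 0.69, ahead of B3gnt3 at 1.41 ± 0.57 (SD, n = 3). In EHE6 B3gnt3 averaged 15.4 ± 2.27 CPM per kb and B3gnt9 5.08 ± 2.32 (SD, n = 3). B3gnt2 and B3gnt3 overlapped in EHE17, as did B3gnt5 and B3gnt8. In EHE6 B3gnt2 overlapped B3gnt5, and B3gnt5 overlapped B3gnt8. Dividing the same counts by the length of exon bases of no other gene put B3gnt2 at 8.03 ± 2.02 and B3gnt9 at 8.01 ± 2.15 CPM per kb in EHE17 (SD, n = 3). Reads were not recounted, so these values are too high where reads in shared bases were counted. Their order there depends on the length used.

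B3gnt3 made up 72.8 to 79.5% of the summed level of the family per kilobase in EHE26, 10.6 to 14.4% in EHE17 and 57.6 to 82.3% in EHE6. B3gnt9 made up 18.9 to 24.7%, 53.0 to 61.7% and 11.3 to 28.0% in the same lines. The summed family level was 118 to 135 CPM per kb in EHE26, 9.06 to 14.2 in EHE17 and 21.9 to 24.6 in EHE6. Without B3gnt3 it was 24.1 to 36.7, 8.07 to 12.2 and 3.87 to 10.4 CPM per kb. Because B3gnt3 was picked for its pattern, its share is a description.

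**Figure D3:**
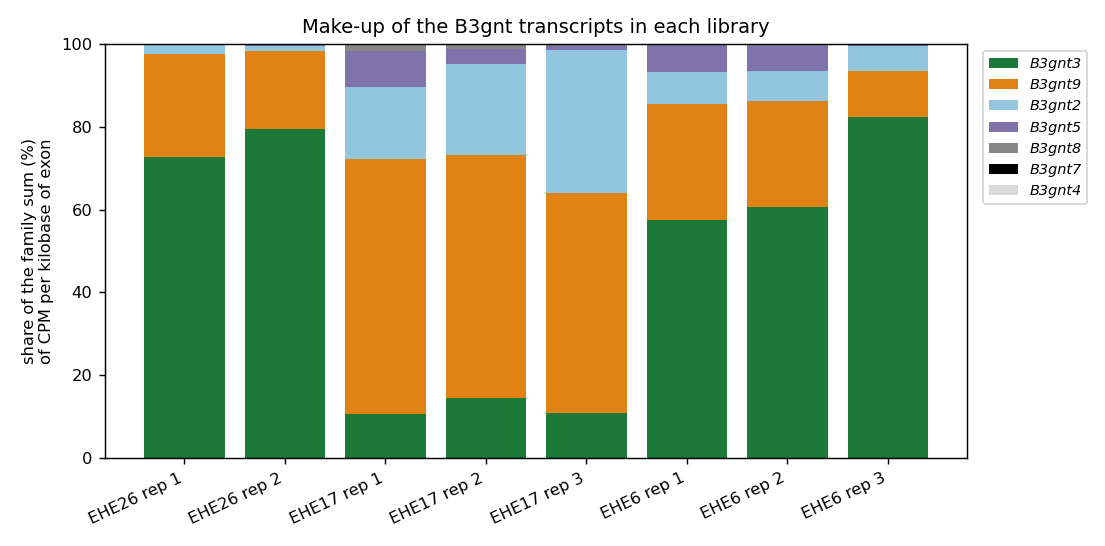
Share of each B3gnt member, in percent, in the summed CPM per kilobase of exon of the family, with a bar for each library and EHE26, EHE17 and EHE6 from left to right. B3gnt3 fills 72.8 to 79.5% of the EHE26 bars, 10.6 to 14.4% of the EHE17 bars and 57.6 to 82.3% of the EHE6 bars.

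The genes whose log2 level followed B3gnt3 most closely over the 8 libraries, among 10240 protein-coding genes with a mean of at least 5 CPM, were Slco2a1 (a prostaglandin transporter, Pearson r = 0.99), Cd34 (a sialomucin, 0.97), Sertad4 (0.97), Pcdhgb2 (a clustered protocadherin, 0.96) and Chst2 (0.96). The most opposed were Plvap (the diaphragm protein of endothelial fenestrae and caveolae, -0.99), Ccdc3 (-0.97) and Acp6 (-0.97). The libraries fall at 3 separate levels of B3gnt3, 1 for each line, so these r values mostly restate the order of the lines and are given with no test. Ranking by Spearman's rho instead kept 1 of these 8 genes. The reads of Pcdhgb2 are uncertain because the genes of its cluster share exons. Among the family, r with B3gnt3 was 0.58 for B3gnt9, 0.24 for B3gnt8, -0.01 for B3gnt5 and -0.44 for B3gnt2.

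Cd34 had 461 and 357 CPM in EHE26, against 13.7, 22.9 and 16.7 CPM in EHE17 and 55.6, 47.6 and 92.7 CPM in EHE6. Slco2a1 had 176 and 439 CPM in EHE26, against 2.31, 4.07 and 0.843 CPM in EHE17 and 27.0, 30.9 and 51.6 CPM in EHE6. Plvap had 538 and 442 CPM in EHE26, against 3955, 3505 and 5941 CPM in EHE17 and 1568, 1508 and 1117 CPM in EHE6. In each of these 3 genes the lines did not overlap, as in 2.99% of all tested genes. That was largely set by picking genes that follow or oppose B3gnt3. Plvap lies 179 kb from B3gnt3 on chromosome 8.

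**Figure D4:**
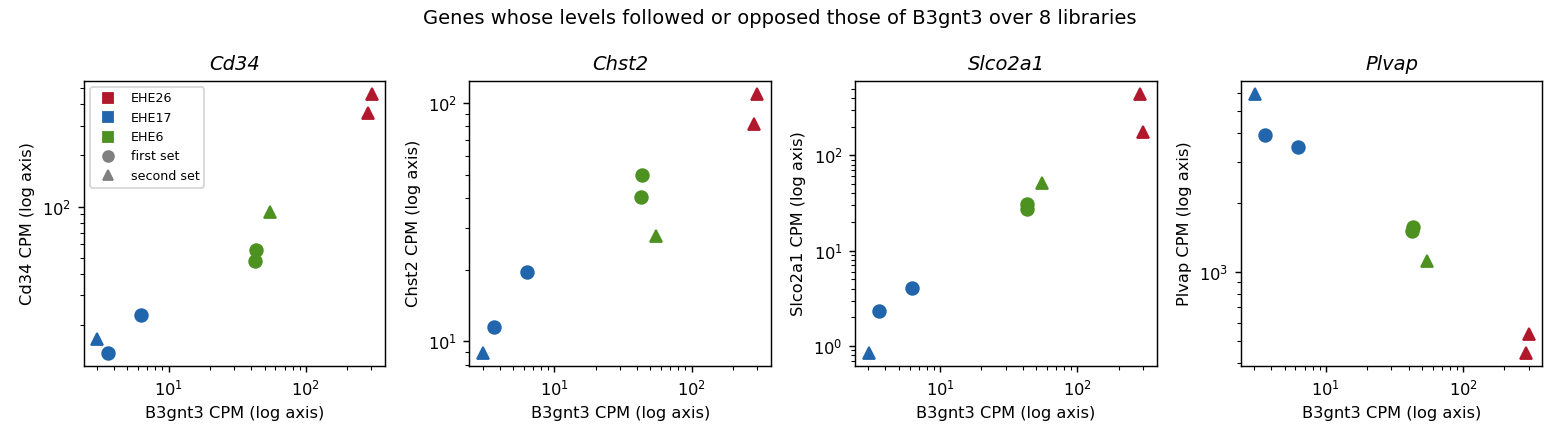
CPM of Cd34, Chst2, Slco2a1 and Plvap against CPM of B3gnt3 in the 8 libraries, both on log axes, with a colour for each line, circles for the first set and triangles for the second. The points stand in 3 separate groups along the axis of B3gnt3, which are the 3 lines.

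The genes beside B3gnt3 were not called. Of the 5 nearest annotated protein-coding genes on each side, 0 of 10 were called by edgeR in each of the 3 comparisons, where 2, 2 and 0 had an unadjusted p under 0.05 and DESeq2 called 2, 2 and 0. The shares over all genes were 15.9%, 16.6% and 6.90% at that unadjusted p and 8.47%, 8.49% and 1.96% by DESeq2. Jak3, which ends 180 bases from B3gnt3, had 28.7 and 33.4 CPM in EHE26, against 24.2, 21.6 and 24.6 CPM in EHE17 and 10.6, 20.4 and 30.6 CPM in EHE6. Colgalt1, a collagen galactosyltransferase, had 459 and 559 CPM in EHE26, against 226, 286 and 193 CPM in EHE17 and 257, 247 and 196 CPM in EHE6, with log2 fold changes of 1.13 ± 0.27 and 1.11 ± 0.27 (SE) against EHE6 and EHE17 and adjusted p of 0.115 and 0.111. Fcho1 had 3.55 and 17.7 CPM in EHE26 and at most 2.08 CPM elsewhere. Over 987 tested genes of chromosome 8 the median log2 fold change was 0.09, 0.09 and -0.05 in the 3 comparisons, against -0.11, -0.11 and -0.03 over all genes.

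Genes that make the acceptors, donors and caps of these chains were described by 9 lists, and most members were not called. The lists were chosen with earlier results of these data known. The sulfated L-selectin ligand that B3GNT3 extends also needs a protein scaffold, such as CD34, and a sulfotransferase, such as CHST2. In the list of 20 selectin ligand and Lewis genes, 18 were tested and 1, Cd34, was called in EHE26 against EHE6, where 1.26% of all genes were. Of the 18, 9 were above 0 there, with a median log2 fold change of -0.05. An unadjusted p under 0.05 was found for 6 of them, where 15.9% of all genes had one. In EHE26 against EHE17, 2 of the 18 were called, Cd34 and Chst2, where 1.08% of all genes were. There 7 of the 18 were above 0, with a median of -0.10, and 5 had an unadjusted p under 0.05, where 16.6% of all genes did. Chst4 and Glycam1, a sulfotransferase and a mucin of high endothelial venules, had 0 reads in all libraries, and were named after their values were seen. Podxl and Emcn of the same list had -2.15 ± 1.06 and -0.49 ± 1.34 (log2, SE) in EHE26 against EHE6 and were not called. Fut7 had at most 0.28 CPM in any library. These genes were also named after their values were seen.

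Both Cd34 and Chst2 are also among the 5 genes most like B3gnt3, which their p-values do not take into account. Cd34 was higher in EHE26 than in EHE6 by 2.65 ± 0.36 (log2, SE, edgeR adjusted p = 0.0168) and higher than in EHE17 by 4.53 ± 0.39 (adjusted p = 0.00779). The first call was lost on leaving out replicate 1 or 2 of EHE6 or either EHE26 library, and with only the compared lines in the fit, with adjusted p of 0.0557 to 0.119. The second was lost without replicate 1 or 2 of EHE17, with adjusted p of 0.0584 and 0.0514. For EHE17 against EHE6 the value was -1.88 ± 0.34 (adjusted p = 0.125), and it was called with no filter on low counts (adjusted p = 0.0249) and by DESeq2 (0.000665). Chst2 had 109 and 81.4 CPM in EHE26, against 11.5, 19.5 and 8.93 CPM in EHE17 and 49.7, 40.2 and 27.6 CPM in EHE6. It was higher in EHE26 than in EHE17 by 2.83 ± 0.40 (adjusted p = 0.0216), and was not called against EHE6 at 1.28 ± 0.39 (adjusted p = 0.200), except with the set as a term (1.82, adjusted p = 0.0483). In EHE17 against EHE6 it was called by DESeq2 alone (-1.57, adjusted p = 0.0267). The call against EHE17 was lost on leaving out any EHE17 or EHE26 library, with adjusted p of 0.0506 to 0.140.

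Among relatives in the same glycosyltransferase family, B3galt1, which adds galactose to N-acetylglucosamine, was the only called member of 15 tested. It had 18.5 and 17.6 CPM in EHE26, against 2.04, 1.20 and 2.13 CPM in EHE17 and 1.98, 2.95 and 5.67 CPM in EHE6. It was higher in EHE26 than in EHE17 by 3.34 ± 0.53 (SE; adjusted p = 0.0346), and 0 of 15 were called in EHE26 against EHE6, where B3galt1 was at 2.35 ± 0.52 (adjusted p = 0.0922). There it was called without replicate 3 of EHE6 (2.88, adjusted p = 0.0127) and by DESeq2 (2.34, adjusted p = 0.00112). The call against EHE17 was lost without any 1 EHE17 or EHE26 library and without replicate 2 of EHE6, with adjusted p of 0.0638 to 0.201. The same gene is the 1 called member of the 14 lacto- and neolacto-series glycolipid genes in EHE26 against EHE17. Of all genes, 1.08% were called in EHE26 against EHE17 and 1.26% in EHE26 against EHE6. In the list of 10 UDP-N-acetylglucosamine supply genes, Gfpt2, a rate-limiting enzyme of the hexosamine pathway, had a log2 fold change of -1.83 ± 0.30 in EHE26 against EHE17 (SE, adjusted p = 0.0372).

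Gfpt2 had 30.0 and 24.7 CPM in EHE26, against 102, 101 and 89.5 CPM in EHE17 and 57.8, 57.6 and 35.2 CPM in EHE6. Its call was lost without any 1 EHE17 or EHE26 library or without replicate 1 or 2 of EHE6, with adjusted p of 0.0643 to 0.319. Against EHE6 it was called without replicate 3 of EHE6 alone (-1.07, adjusted p = 0.0328). No member of these 9 lists was called in EHE17 against EHE6 by edgeR, where 0.143% of all genes were. At an unadjusted p under 0.05 were 7 of 18 selectin ligand and Lewis genes, 4 of 10 UDP-N-acetylglucosamine supply genes and 2 of 8 keratan sulfate genes. Each other list had 0 or 1, and the share over all genes was 6.90%. DESeq2 called 0 to 2 members of a list there, and 1.96% of all genes. C1galt1, which makes the core 1 O-glycan that B3GNT3 extends, had 50.7 and 58.0 CPM in EHE26, against 39.1, 20.7 and 52.0 CPM in EHE17 and 36.1, 35.5 and 34.4 CPM in EHE6. It was named after its values were seen, and was not called in any comparison (adjusted p of 0.434, 0.464 and 1).

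The remaining lists held no called member in EHE26 against EHE6 or EHE26 against EHE17, apart from the single genes above. At an unadjusted p under 0.05, the first comparison had 2 of 18 O-glycan core genes, 4 of 14 N-glycan branching genes, 3 of 10 poly-N-acetyllactosamine partners and 3 of 9 genes of the galectin list, and the second had 4, 7, 3 and 3. The shares over all genes were 15.9% and 16.6%. The galectin list also holds Lgalsl, a galectin-related gene, and Lgals3bp, a glycoprotein that galectins bind, and Lgals3bp was among its 3 in both comparisons. DESeq2 called 0, 2, 0 and 1 in the first and 1, 2, 0 and 2 in the second, where it called 8.47% and 8.49% of all genes. Median log2 fold changes in EHE26 against EHE6 were 0.49, 0.27, 0.31 and 0.52, and in EHE26 against EHE17 0.61, 0.64, 0.22 and 1.06, against -0.11 over all genes in each. In the keratan sulfate list of 8 tested genes the median was -0.76 and -0.34. Chst2 was its 1 called member in EHE26 against EHE17, where 1.08% of all genes were called. In EHE26 against EHE6, 0 genes were called by edgeR in the glycosyltransferase relatives, the lacto- and neolacto-series genes, the UDP-N-acetylglucosamine supply genes and the keratan sulfate genes, where 3, 4, 2 and 2 had an unadjusted p under 0.05 and DESeq2 called 2, 1, 0 and 0. The medians of the first 3 of these lists were 0.22, 0.43 and 0.08 in EHE26 against EHE6, and 0.25, 0.12 and -0.23 in EHE26 against EHE17. In EHE17 against EHE6 the medians of the 9 lists lay between -1.04 and 0.37, against -0.03 over all genes.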

How the data were processed

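Per the labels' protocols, RNeasy Mini columns gave the RNA and NEBNext Ultra II the polyA-selected libraries. HISAT2 and mm10 are named in the submitters' processing notes. Which tool counted the reads, on which annotation and with which strand option is not given in the sources used here, nor is the HISAT2 version. The deposited values are raw counts per gene, and the file of each of the 8 libraries equals its column in the series table. Symbols and positions came from GENCODE M21, which holds 55141 of 55401 identifiers.

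After TMM scaling, filterByExpr kept 18882 genes. The quasi-likelihood test of edgeR 4.0.16 (R 4.3.3) was fitted on all 8 libraries with line as the only term, and p-values were adjusted over all genes tested with the Benjamini-Hochberg method. Called genes have an adjusted p under 0.05 and a log2 fold change of 1 or more in size. DESeq2 1.42.0 was an alternative, with others given in the closing section. Tests were checked on simulated counts.

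Named genes are all 7 members, up to 4 called genes of each list per comparison, the 5 genes most like and 3 most opposed to B3gnt3, and the 5 nearest genes on each side of it. The members and lists were chosen with earlier results of these data known. Floors are 3 counts over a line and cover counting error only, as totals were 44620965 to 96237665.

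Replicates 1 to 3 of EHE17 and EHE6 share numbers in the labels, and the deviations of same-numbered libraries from their line means correlated at 0.13, 0.18 and 0.57 over genes, each above the bar of 0.1 set for pairing. Differently numbered libraries correlated more in part, at 0.62 for EHE17 replicate 1 with EHE6 replicate 2 and 0.54 for EHE17 replicate 2 with EHE6 replicate 1. The printed tests have no replicate term, and the fit with a replicate block is an alternative. EHE26 shares 2 numbers with each other line, at 0.18 and -0.10 with EHE6 and -0.06 and -0.11 with EHE17, and was not treated as paired. The leukocyte marker list is not reported here.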

Additional observations from a re-analysis of the deposited data

How the results depend on the processing

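The number of called genes in EHE26 against EHE6, 237, became 547 with no filter on low counts, 356 with the set as a term in the fit, 126 with only the compared lines and 1597 by DESeq2. It ran from 65 to 1632 on leaving out 1 library, highest without replicate 3 of EHE6. In EHE26 against EHE17, 203 became 745, 319, 764 and 1699 under the same alternatives and 612 in the second set alone, and ran from 2 without replicate 2 of EHE17 to 1415 without replicate 3 of EHE6. In EHE17 against EHE6, 27 became 142, 102, 7 and 393, with 97 in the first set and 473 in the second, and ran from 1 without replicate 1 of EHE17 to 54 without replicate 3 of EHE6. With a replicate block the counts were 1459 (674 higher, 785 lower, against 207 and 30), 1860 (918 higher, 942 lower, against 168 and 35) and 33, and the block changed no family call in EHE17 against EHE6.

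The count of called paralogues, 0, became 1 (B3gnt9) in EHE26 against EHE6 and in EHE26 against EHE17 with no filter, the replicate block, the set as a term and DESeq2. In EHE26 against EHE17 it became 1 also with only the compared lines. It was 0 to 1 on leaving out a library in both, and 0 in all 16 alternatives for EHE17 against EHE6. B3gnt3, whose direction was fixed by its choice, had 2.41 (EHE26 against EHE6) and -4.18 (EHE17 against EHE6) in the second set. With the replicate block B3galt1 was called in EHE26 against EHE6 (2.72, adjusted p = 0.0262). Ranking genes by likeness with Spearman's rho kept 1 of 8.

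Uncalled values changed sign. B3gnt5 had 2.45 and 2.73 with the set as a term in the EHE26 comparisons with EHE6 and EHE17, and 3.81, 2.02 and 1.79 in the second set, and ran from -1.08 to 0.20 on leaving out a library in EHE26 against EHE17. B3gnt2 ran from -0.26 to 0.85 in EHE26 against EHE6 and from -1.02 to 0.086 in EHE26 against EHE17 on leaving out a library. B3gnt8 ran from -0.080 to 0.66 in EHE26 against EHE17, and had -0.51 in the second set in EHE17 against EHE6. C1galt1 in EHE17 against EHE6 had -0.25 in the first set and ran from -0.24 to 0.38, and Lgals1 in EHE26 against EHE6 had 0.17 in the second set and ran from -0.48 to 0.27. The cause was not tested. In EHE17 B3gnt2 and B3gnt9 changed ranks when the same counts were divided by the length of exon bases of no other gene. The second-set, first-set and unshared-base alternatives were added after the data were seen. Depth limits B3gnt8, B3gnt5 in the second set, and B3gnt7.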

Other observations

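Galectins, the lectins that bind poly-N-acetyllactosamine, together with the galectin-related Lgalsl, summed to 1780 to 2150 CPM over 9 genes in EHE26, 366 to 637 CPM in EHE17 and 1200 to 2508 CPM in EHE6, so EHE26 overlapped EHE6 and lay above EHE17. Lgals3bp, a glycoprotein that galectins bind, was left out of these sums after its values were seen. Of these, Lgals1 had 1590 and 1081 CPM in EHE26, against 196, 378 and 362 CPM in EHE17 and 2311, 1023 and 1185 CPM in EHE6. Lgals1 was named after its values were seen and was not called in the main edgeR fit. Its log2 fold change was 2.10 ± 0.45 (SE, edgeR adjusted p = 0.0844) for EHE26 against EHE17 and -2.27 ± 0.42 (adjusted p = 0.141) for EHE17 against EHE6. These results depended on the fit, as Lgals1 was called in 4 of 15 alternatives in the first and 2 of 16 in the second. In the 10 Mb around B3gnt3, 2 of 149 other tested genes were called in EHE26 against EHE6, Ifi30 and Bst2, where 1.26% of all genes were, and 2 in EHE26 against EHE17, Ifi30 and Plvap, where 1.08% of all genes were.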
